A study of Rattus norvegicus with 8 samples.

Results

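Hyaluronan is a very long, unbranched sugar polymer of glucuronic acid and N-acetylglucosamine that holds water in the gelatinous core of the intervertebral disc. Its 7 genes described here encode the hyaluronan synthases (Has1, Has2 and Has3), which spin the chain out through the plasma membrane, the hyaluronidases Hyal1 and Hyal2, the surface receptor CD44, and TSG-6 (Tnfaip6), an inflammation-induced protein that binds the chain. They were chosen by symbol, and 6 of the 7 had a row among the 13536 rows of the table of all genes. Has3 had no row there and is not analysed here.

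In the disc, hyaluronan carries aggregates of aggrecan fixed to the chain by link protein, and the cells hold this coat through CD44. Hyaluronidases cut the chain, Hyal2 at or near the cell surface and Hyal1 in lysosomes, and the fragments are known to act on cells differently from the intact polymer. HuR is an RNA-binding protein that recognises AU-rich elements and is known to affect the stability and translation of many cytokine and matrix mRNAs.

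The study compared 4 RNA-seq libraries of ShHuR cells, which carried a lentiviral short hairpin RNA against HuR (gene Elavl1), with 4 of ShCTR cells, which carried a non-target hairpin in the PLKO.1 vector. All were primary nucleus pulposus cells from Wistar rats, expanded from explants in medium with serum and kept at 1% oxygen for the last 24 h. A hairpin lowers its target and does not delete it, and the labels do not say how many hairpins were used against HuR. The values are normalized counts, read counts divided by the authors by 1 factor per library, and a log2 difference is of the normalized count + 1, ShHuR minus ShCTR. Recovered reads ran from 6797360 to 8038192 in ShHuR libraries and from 9096738 to 12179515 in ShCTR libraries. Elavl1 (ENSRNOG00000001069) kept 11.5%, 0.867%, 1.43% and 7.70% of its ShCTR level in the ShHuR libraries of pairs 1 to 4. Replicate numbers were used to pair the libraries, as same-numbered libraries deviated together, though those of numbers 2 and 3 also did so across numbers. Both libraries of number 1 stood apart from the rest. Of 10 nucleus pulposus markers 8 had a row and 7 were tested. With the block 0 of the 7 were higher and 2 lower (Acan and Car12), with log2 differences from −1.69 (Acan) to 1.03 (Cd24, which did not pass). The cartilage collagen gene Col2a1, under the filter, was at 0 to 3.04 in ShHuR and 0 to 21.0 in ShCTR libraries. The sum of the 8 was 314.1 to 1033 in ShHuR and 541.1 to 1204 in ShCTR libraries. The sum of 7 fibroblast and annulus markers was 9901 to 45093 in ShHuR and 43285 to 90363 in ShCTR libraries. Col1a1 alone was 2444 to 20117 in ShHuR and 23002 to 44777 in ShCTR libraries, so it weighs heavily in the sum. With the block 4 of the 7 were lower (Col1a1, Col3a1, Pdgfrb and Thy1) and 1 higher (Twist2), and Pdgfra and Fap did not pass. Leukocytes express CD44 and TSG-6, and 3 of 10 leukocyte markers had a row (Cd14, Cd68 and Csf1r). Their sum was 563.0 to 1290 in ShHuR and 333.9 to 992.8 in ShCTR libraries, and 0 of the 3 passed the test. The part of these marker shifts in the results was not tested.

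Differences were tested with limma across 11847 rows, and a gene is said to have risen or fallen when its Benjamini-Hochberg adjusted p was under 0.05 when replicate number entered the fit as a block. Without the block, which was the fit chosen as the main one, limma called 0 of the 11847 rows (978 had an unadjusted p under 0.05). In that fit 0 of the 5 hyaluronan genes tested passed, and 0 had an unadjusted p under 0.05. Without the block edgeR called 0 rows and 0 of the 5 genes, and DESeq2 called 248 rows and 0 of the 5 genes. With each of these tools 1 of the 5 had an unadjusted p under 0.05. With the block, 2 of the 5 genes tested were higher (Has2 and Hyal2) and 0 were lower. Over all rows, 15.2% were called in that fit, 7.16% as higher. On the recovered reads with the block, edgeR and DESeq2 also called 2 of the 5, where they called 15.6% and 17.3% of all rows. Without pair 1 limma called 3 of the 5 (Has2, Hyal2 and Tnfaip6), all as higher, where 11.3% of rows were called as higher. In 0 of the 6 genes with a row did the groups fail to overlap, beside 5.60% of the rows tested, 2.52% with ShHuR above ShCTR. The median log2 difference of the 5 was 0.53, against 0.01 over all rows tested. Has1 was under the filter on low values (4 of 8 libraries at 10 or more) and so is not among the 5.

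Transcripts of the hyaluronan synthases were higher with the hairpin against HuR in pairs 2 to 4 for both Has2 and Has1, and both were scarce in pair 1. Has2 (ENSRNOG00000004854) encodes the main synthase of most connective tissue cells. Its normalized counts were 7.60, 704.9, 1380 and 1320 in ShHuR replicates 1 to 4, against 10.3, 69.6, 133.3 and 141.6 in ShCTR replicates 1 to 4. The ShHuR libraries of replicates 2 to 4 were thus above every ShCTR library, while ShHuR replicate 1 was below every ShCTR library, so the groups overlapped. Behind the 2 values of pair 1 stood only 5 reads in the ShHuR library and 11 in the ShCTR library. Pair by pair the ratio of ShHuR to ShCTR was 0.739, 10.1, 10.4 and 9.32 (pairs 1 to 4). The means were 853.0 ± 640.8 in ShHuR and 88.7 ± 61.4 in ShCTR libraries (SD, n = 4 each).

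With the block Has2 rose by 2.38 on the log2 scale (SE 0.59, 95% interval 1.01 to 3.74; limma adjusted p = 0.0364), the 35th largest rise of the 11847 rows. Without pair 1 the log2 difference was 3.30 (SE 0.12; limma adjusted p = 2.8e-05). Without pair 2, 3 or 4 the call was lost, with adjusted p-values of 0.140, 0.109 and 0.156 in limma and log2 differences of 2.06, 2.05 and 2.10. Over all rows those 3 fits called 62, 523 and 0, against 1802 with all pairs. RefSeq places a long non-coding RNA, LOC108351495, over Has2. Whether reads were counted by strand is not given in the sources used here. The reads of these 2 genes may therefore be mixed.

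Has1 (ENSRNOG00000010994), a synthase found at low levels in many resting cells and known to be induced by inflammatory signals, was close to 0 in ShCTR cells. Its normalized counts were 1.52, 10.1, 145.2 and 28.4 in ShHuR replicates 1 to 4, against 0, 2.93, 0.913 and 0 in ShCTR replicates 1 to 4. Replicates 2 to 4 of ShHuR lay above all ShCTR libraries, and ShHuR replicate 1 lay among them. In reads this was 178 over the 4 ShHuR libraries, 139 of them in replicate 3, and 5 over the 4 ShCTR libraries. Per total recovered reads the ratio of the sums was 50.8, with an exact 95% interval of 21.4 to 158.4 that covers counting error only. Left-out libraries, a check added after the data were seen, moved this ratio by over 1.5 times in 2 cases. Without ShHuR replicate 3 it was 14.8 (5.84 to 48.2), from 39 and 5 reads, and without ShCTR replicate 2, which held 4 of the 5 reads, it was 181.7 (32.2 to 7217). In pair 2 the ratio of normalized counts was 3.45, from 10 and 4 reads (exact 95% interval 0.994 to 15.1), and in pair 3 it was 159, from 139 reads and 1 read (28.1 to 6325). In pair 4 the ShCTR library had 0 reads, and against a floor of 3 reads the ShHuR level, from 28 reads, was 10.5-fold higher. That value leaves out the counting error of the 28 reads. Pair 1 had 1 read in ShHuR and 0 in ShCTR, too few for a ratio. An exact permutation test over the 8 libraries gave p = 0.0571 (two-sided, with 0.0286 the smallest that 4 against 4 can give), and an exact sign-flip permutation test within the 4 pairs had p = 0.125, below which so few pairs cannot go. With no filter on low values, which Has1 passes, limma with the block gave a log2 difference of 3.49 (SE 0.84) and an adjusted p of 0.0350, and limma without the block an adjusted p of 0.457.

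**Figure D1:**
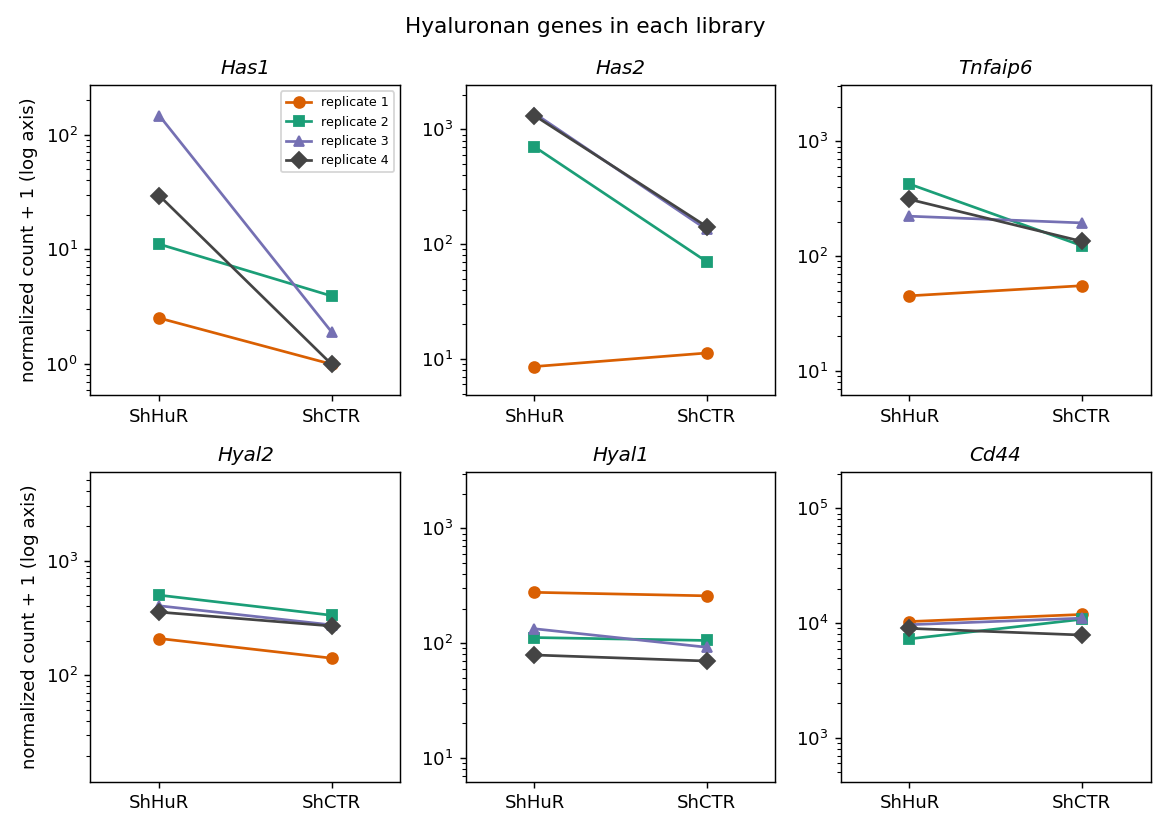
Normalized count + 1 (log axis, the same span in each panel) of 6 hyaluronan genes in the ShHuR and ShCTR libraries. Each line joins the libraries of 1 replicate number. Has2 lies between 704.9 and 1380 in ShHuR replicates 2 to 4 and at 7.60 in replicate 1, and Cd44 lies within a narrow band in all 8 libraries.

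Tnfaip6 encodes TSG-6, a secreted protein that binds hyaluronan through a Link module and moves heavy chains of inter-alpha-inhibitor onto it. Its normalized counts were 44.1, 423.2, 221.4 and 310.9 in ShHuR replicates 1 to 4, against 54.2, 122.3, 193.6 and 133.5 in ShCTR replicates 1 to 4. ShHuR replicates 2 to 4 were above all ShCTR libraries, and the libraries of number 1 were the lowest of each group, as they were for Has2. By pair the log2 difference was −0.29, 1.78, 0.19 and 1.21 for pairs 1 to 4. The mean difference of 0.72 did not pass with the block (SE 0.32, 95% interval −0.01 to 1.46; limma adjusted p = 0.149). Without pair 1 it was 1.06 and passed (limma adjusted p = 0.0243), and without pair 2 it was 0.37 (limma adjusted p = 0.460).

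Promoter stretches were available for 5 of the 7 genes, and 3 are shown, the 2 that held a match to a motif searched (Has1 and Tnfaip6) and, as one with no match, that of the receptor gene Cd44. Each is the 250 bases before the start site in the RefSeq annotation of GRCr8, 5′ to 3′ on the gene's strand, with motif matches in capitals. The motifs searched on both strands were AP-1 (TGANTCA), CRE (TGACGTCA) and a TATA box (TATAAA), none of which overlapped another here.
Has1, chr1:67378445-67378694, minus strand: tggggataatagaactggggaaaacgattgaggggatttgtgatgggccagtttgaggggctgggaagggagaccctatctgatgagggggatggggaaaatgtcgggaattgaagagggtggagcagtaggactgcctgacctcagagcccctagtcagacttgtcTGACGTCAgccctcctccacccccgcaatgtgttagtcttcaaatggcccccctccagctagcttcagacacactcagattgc
Tnfaip6, chr3:56911148-56911397, plus strand: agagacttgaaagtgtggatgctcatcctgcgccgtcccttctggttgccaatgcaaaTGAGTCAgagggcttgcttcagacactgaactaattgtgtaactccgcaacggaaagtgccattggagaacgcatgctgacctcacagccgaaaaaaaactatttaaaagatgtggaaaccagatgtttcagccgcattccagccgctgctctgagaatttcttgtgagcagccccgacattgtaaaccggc
Cd44, chr3:109699425-109699674, minus strand: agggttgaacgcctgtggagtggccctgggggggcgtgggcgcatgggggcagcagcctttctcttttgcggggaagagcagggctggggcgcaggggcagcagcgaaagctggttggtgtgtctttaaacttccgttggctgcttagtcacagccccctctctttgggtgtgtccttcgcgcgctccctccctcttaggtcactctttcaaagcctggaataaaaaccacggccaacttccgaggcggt
The Has1 stretch held 1 CRE, 83 to 76 bases before the start, a motif in 1.59% of 33469 promoter stretches of this length. The Tnfaip6 stretch held 1 AP-1 match, TGAGTCA, 192 to 186 bases before the start, a motif in 6.34% of them. TATAAA, which 12.9% hold, was in none of the 5 stretches, and those of Cd44, Hyal1 and Hyal2 held none of the 3 motifs. A match is a run of letters and does not show that a factor binds there.

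The hyaluronidase gene Hyal2 was higher in all 4 pairs, by a like amount in pairs 1 to 3 and by less in pair 4, whereas Hyal1 differed little. Hyal2 (ENSRNOG00000031420) encodes a GPI-anchored enzyme that cuts long hyaluronan chains into large fragments. It stood at 208.2, 497.9, 402.1 and 354.5 normalized counts in ShHuR replicates 1 to 4, against 140.1, 332.4, 273.9 and 267.9 in ShCTR replicates 1 to 4. The groups overlapped because the libraries of number 1 were low in both, but within every pair the ShHuR library was the higher. The ratio was 1.49, 1.50, 1.47 and 1.32 in pairs 1 to 4. Hyal2 rose by 0.53 on the log2 scale (SE 0.10, 95% interval 0.29 to 0.76; limma with the block, adjusted p = 0.0212). Without pair 1 the difference was 0.51 and passed (limma adjusted p = 0.0183). Without pairs 2, 3 and 4 it was 0.51, 0.52 and 0.57 and the call was lost, with adjusted p-values of 0.116, 0.0604 and 0.0908 in limma. Those fits called 62, 523 and 0 of all rows, against 1802 with all pairs.

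Hyal1 encodes the lysosomal hyaluronidase that takes the fragments further. Its normalized counts were 276.6, 111.1, 132.7 and 78.0 in ShHuR replicates 1 to 4, against 257.8, 104.7, 91.3 and 69.0 in ShCTR replicates 1 to 4. Every pair was slightly higher in ShHuR, with the libraries of number 1 the highest of both groups, the opposite of their place for Hyal2 and Has2. The log2 difference was 0.22 with the block (95% interval −0.10 to 0.55; limma adjusted p = 0.286), so a rise of up to that upper bound is not excluded by the interval. Hyal2 and Hyal1 are neighbours in the RefSeq annotation, where Hyal1 overlaps Hyal3 and Naa80. The strands of these genes were not compared, and part of the Hyal1 reads may belong to Hyal3 and Naa80, which limits its value.

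Cd44, the principal hyaluronan receptor, differed little between the groups. It encodes a transmembrane protein with many splice forms, which a count per gene does not separate. It had 10311, 7285, 9678 and 8988 normalized counts in ShHuR replicates 1 to 4, against 11884, 10782, 11030 and 7871 in ShCTR replicates 1 to 4. Pairs 1 to 3 were lower in ShHuR and pair 4 was higher, and the groups overlapped. The log2 difference was −0.19 (SE 0.16, 95% interval −0.57 to 0.19; limma with the block, adjusted p = 0.433). After quantile normalization the difference was 0.01, so its direction depends on the scaling. With 6786 to 9266 reads in ShHuR and 8783 to 14724 in ShCTR libraries, depth is not the limit here, and the interval leaves out a change of the size seen for Has2.

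**Figure D2:**
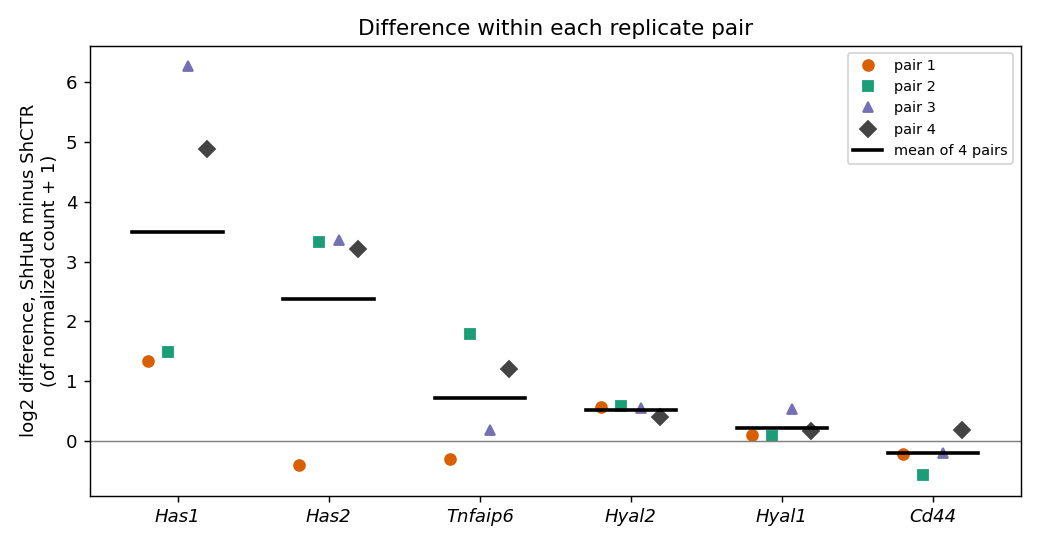
Log2 difference (ShHuR minus ShCTR, of normalized count + 1) within each replicate pair for 6 hyaluronan genes, with a black line at the mean of the 4 pairs. For Has2 pairs 2 to 4 lie at 3.21 to 3.36 and pair 1 at −0.39, while the 4 pairs of Hyal2 lie between 0.40 and 0.58.

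In the authors' deposited table Has1 has a log2 fold change of 1.59 (adjusted p = 0.000371), Has2 1.49 (adjusted p = 0.0011) and Hyal2 0.51 (adjusted p = 0.00371). That table, in which 16.3% of rows with an adjusted p are called and 8.13% are called as higher in ShHuR, calls 3 of the 6 genes, all 3 as higher in ShHuR. Its values for Tnfaip6, Hyal1 and Cd44 are 0.66, 0.21 and −0.18, with adjusted p-values of 0.0866, 0.483 and 0.453, which are not called. For Has1 and Has2 the deposited fold changes are smaller than those of the limma fit above, and for Hyal2 and Hyal1 they are close to them. The 2 are unlike measures, so a smaller deposited value need not mean a smaller effect. For Elavl1 the deposited value is −1.82 and that of limma with the block −4.84.

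Among genes listed for the metabolism of the sugar nucleotides from which the chain is built, 3 of 10 tested rose and 0 fell. Their median log2 difference was 0.32 against 0.01 over all rows. Gfpt2 encodes an isoform of the enzyme that commits sugar to the hexosamine pathway, the route to UDP-N-acetylglucosamine. It stood at 47.1, 227.2, 1012 and 789.9 normalized counts in ShHuR replicates 1 to 4, against 19.6, 33.0, 40.2 and 78.0 in ShCTR replicates 1 to 4. Each ShHuR library was above its paired ShCTR library, also in pair 1, and Gfpt2 rose by 2.98 on the log2 scale (SE 0.46; limma with the block, adjusted p = 0.0127). It ranked 12th among the rises of all rows. Its paralog Gfpt1 had a log2 difference of −0.40 (limma with the block, adjusted p = 0.056) and was lower in ShHuR in all 4 pairs. Gfpt1 was above Gfpt2 in every library. It stood at 737.0, 1133, 1121 and 880.1 normalized counts in ShHuR replicates 1 to 4, against 860.2, 1715, 1707 and 988.4 in ShCTR replicates 1 to 4. DESeq2 with the block called the fall of Gfpt1 (adjusted p = 0.0441), as does the authors' deposited table (adjusted p = 0.0415). Uap1, which makes UDP-N-acetylglucosamine in the last step, rose by 0.84 (SE 0.19; limma with the block, adjusted p = 0.0303), at 417.9, 1560, 1426 and 1809 normalized counts in ShHuR replicates 1 to 4 and 343.7, 889.7, 887.5 and 596.8 in ShCTR replicates 1 to 4. Its relative Uap1l1 rose by 0.37 (limma with the block, adjusted p = 0.0433), a call that edgeR with the block did not make (adjusted p = 0.0509) and quantile normalization removed (limma adjusted p = 0.0548). Genes on the route to the other precursor, UDP-glucuronic acid, did not pass. Ugdh, which makes it, had a log2 difference of −0.19 (95% interval −0.53 to 0.14), Ugp2 of 0.26 (−0.05 to 0.56) and Pgm1 of 0.32 (0.07 to 0.57). Their adjusted p-values in the blocked limma fit were 0.377, 0.206 and 0.0811.

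Of 7 other tested genes of hyaluronan breakdown 1 rose and 1 fell, with a list median of −0.04. Tmem2 (ENSRNOG00000012782), listed as Cemip2 in RefSeq, encodes a transmembrane protein described in mouse as a cell surface hyaluronidase. Its normalized counts were 92.7, 2085, 4721 and 3103 in ShHuR replicates 1 to 4, against 67.2, 623.1, 651.9 and 574.4 in ShCTR replicates 1 to 4. As for Has2, the libraries of number 1 were far below the others in both groups, but pair 1 moved the same way as the rest. By pair the log2 difference was 0.46, 1.74, 2.85 and 2.43, and Tmem2 rose by 1.87 (SE 0.34; limma with the block, adjusted p = 0.0182). Gusb, a lysosomal glucuronidase gene, had a log2 difference of −0.17 and Cemip, whose product binds hyaluronan and promotes its breakdown, of −0.04 (limma with the block, adjusted p = 0.284 and 0.914). Hyal3 had a log2 difference of 0.09 (limma with the block, adjusted p = 0.763).

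Other hyaluronan receptors and binding proteins moved both ways, with 2 of 12 tested genes higher and 3 lower and a list median of −0.06. Ptx3, a pentraxin that works with TSG-6 in the hyaluronan matrix of the mouse ovarian follicle, rose by 1.70 (SE 0.37; limma with the block, adjusted p = 0.0275). It stood at 9.12, 298.9, 328.0 and 326.1 normalized counts in ShHuR replicates 1 to 4, against 5.60, 35.9, 71.2 and 164.0 in ShCTR replicates 1 to 4. The libraries of number 1 were again the lowest of each group. Layn, which encodes the hyaluronan receptor layilin, rose by 0.84 (SE 0.17; limma with the block, adjusted p = 0.0245). Acan, the aggrecan gene, was lower in each pair and fell by 1.69 on the log2 scale (SE 0.21; limma with the block, adjusted p = 0.0085), at 211.2, 47.5, 59.5 and 14.2 normalized counts in ShHuR replicates 1 to 4 and 449.3, 134.7, 224.6 and 72.6 in ShCTR replicates 1 to 4. Hapln1, the link protein that ties aggrecan to hyaluronan, fell by 0.92 (SE 0.23; limma with the block, adjusted p = 0.0378). Hmmr, a hyaluronan-binding protein that also works at the mitotic spindle, fell by 0.73 (SE 0.19; limma with the block, adjusted p = 0.0412), with a difference of −0.01 in pair 1. The large proteoglycan gene Vcan had a log2 difference of −0.01, the innate receptor gene Tlr2 of 0.40 and the gene of the hyaluronan-binding protein C1qbp of 0.35, and none of these 3 passed (limma with the block, adjusted p = 0.98, 0.305 and 0.0607).

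Of 7 genes for proteins that link CD44 to the cytoskeleton or cut it from the surface, 1 rose and 0 fell, with a list median of 0.06. Adam17, a protease that sheds many membrane proteins, rose by 0.86 (SE 0.14; limma with the block, adjusted p = 0.0139), at 2042, 4485, 5378 and 5348 normalized counts in ShHuR replicates 1 to 4 and 1536, 2396, 2697 and 2472 in ShCTR replicates 1 to 4. The log2 differences of the linker gene Msn (moesin) and of the protease genes Mmp14 and Adam10 were 0.06, −0.09 and 0.02 (limma with the block, adjusted p = 0.816, 0.633 and 0.921). Over the 4 lists 7 of 36 tested genes rose and 4 fell, beside 7.16% and 8.05% of all rows. The lists were written with earlier results of these data known, so these counts are no test of an excess over those shares. Without pair 1 the count was 9 higher and 5 lower, where limma called 23.9% of all rows. Without pairs 2, 3 and 4 it was 1, 4 and 0 genes in all, with Acan called without pair 2, and Acan, Adam17, Gfpt2 and Tmem2 without pair 3. Over all rows those fits called 62, 523 and 0.

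**Figure D3:**
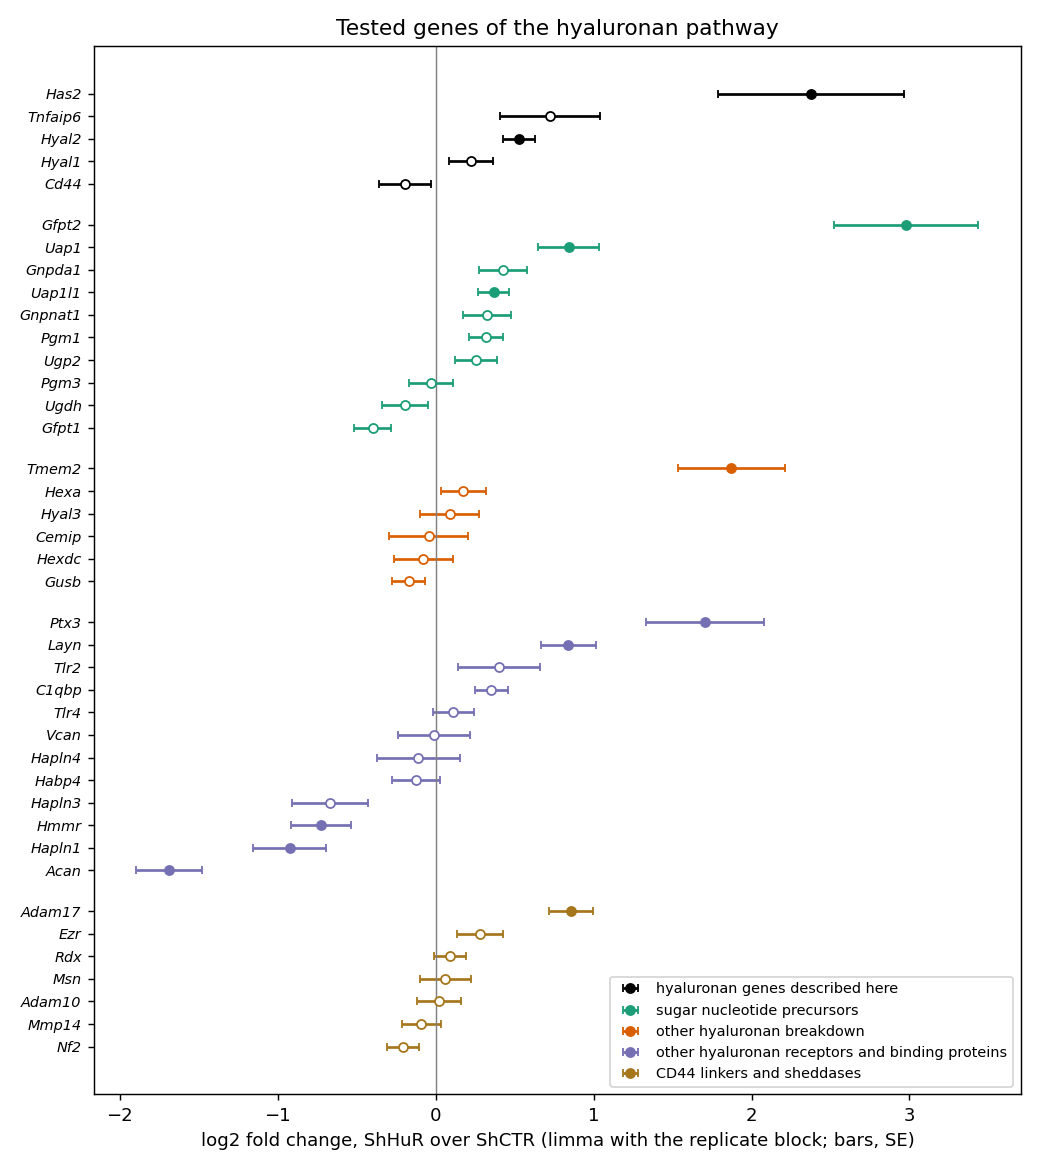
Log2 fold change (ShHuR over ShCTR, x axis) with its SE for tested genes of 5 groups of the hyaluronan pathway, all but 1 of them, from limma with the replicate block. Filled points passed an adjusted p of 0.05, and the 3 farthest to the right are Gfpt2 at 2.98, Has2 at 2.38 and Tmem2 at 1.87.

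The genes most like each hyaluronan gene were sought only among tested genes with a mean expression above the median. Pearson correlation over the 8 libraries was used, after the mean of each replicate number was taken off. What then remains is 1 difference per pair, so these are 4 independent values, and very high correlations occur readily among so many rows. Closest to Has2 were Spty2d1, Vps37a and Znf740 (r = 0.997, 0.996 and 0.996), with log2 differences of 0.42, 0.15 and 0.33 that the blocked limma fit did not call. Closest to Tnfaip6 were Cldn12, Dock4 and Naa15 (r = 0.993, 0.993 and 0.991), which did not pass either. Among the closest to Hyal2 were Spata6 and Erh (r = 0.9995 and 0.9986), of which Spata6 rose by 0.48 (limma with the block, adjusted p = 0.0265) and Erh did not pass. For Hyal1 they were Rad17, Thoc2 and Ccng1 (r = 0.9997, 0.999 and 0.9978) and for Cd44 Ahcyl2, Mcm3 and Trim35 (r = 0.986, 0.985 and 0.985), none of which passed.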

How the data were processed

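RNA was sequenced from 4 ShHuR and 4 ShCTR libraries after ribosomal RNA depletion, as stranded total RNA, per the labels' protocols. No aligner, counting program, genome build or annotation was given in the sources used here. The deposited per-library values are a normalized signal, gene counts divided by 1 factor per library, per the file headers and the values. In every column 100% of values were whole multiples of 1 step within 0.01 read, so reads were recovered. EdgeR on those reads called 0 rows without the block and 1845 with it. The authors' deposited log2 fold changes and adjusted p-values are quoted only where named.

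Symbols name the rows, because identifiers in the sheet of all genes stand out of register with symbols (3 of 2116 matched rows had the same identifier). Identifiers come from the authors' sheet of called genes. The 21 symbols that a spreadsheet had turned into dates were left unnamed.

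Limma 3.58.1 (R 4.3.3) with a mean-variance trend was run on log2(value + 1), for rows with at least 4 of 8 libraries at 10 or more, two-sided, with Benjamini-Hochberg adjustment over 11847 rows. This scale understates changes of low genes. The correlations of deviations from group means were 0.871, 0.785, 0.627 and 0.773 for the same-numbered pairs 1 to 4, all over 0.1. On that limit, replicate number was used as a block. ShHuR 2 with ShCTR 3 had 0.624 and ShHuR 3 with ShCTR 2 had 0.427, also over 0.1. The other unlike-numbered correlations were negative. The limit therefore does not set the pairing of numbers 2 and 3 apart from the swapped one. The column headers do give same-numbered libraries of both groups the same replicate tag, without saying what it means. Calls with the block rest on this pairing. What a number stands for is not in the labels, nor is whether libraries came from separate animals or cultures. The p-values therefore measure only the spread between these libraries or, with the block, the spread of the differences within these pairs. Bulk RNA cannot tell fewer cells of a type from less RNA per cell. EdgeR 4.0.16 and DESeq2 1.42.0, pseudocounts of 0.5 and 5, no filter, quantile normalization and leaving out libraries or pairs were the alternatives. The genes and lists were chosen with earlier results of these data known. Named genes are the 7 genes, Elavl1, called genes of the 4 pathway lists, up to 3 further genes of highest mean per list, and the 3 closest genes per member tested, a few of which are not reported here. Marker genes named in the opening are from the marker lists, with the values of Col2a1, Cd24 and Col1a1 picked after they were seen.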

Additional observations from a re-analysis of the deposited data

Results flagged for a closer look

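In 3 results 1 of 4 values lay far from the rest. Such a gap is met by chance in about 1 in 20 groups, and 3 of 18 groups of values showed one. The groups are not independent, as pair differences come from the same values as the levels, so these shares cannot be compared. Both flags of Has2 involve ShHuR replicate 1. Has2 in ShHuR replicate 1 had a log2(normalized count + 1) of 3.10, against values above 9 in the other ShHuR libraries, and the log2 difference of Has2 in pair 1 was −0.39 where the other pairs were at 3.21 to 3.36. The log2 difference of Hyal2 in pair 4, at 0.40, lay below the 0.55 to 0.58 of the other pairs. The Elavl1 level that remained in pair 1 was 11.5% of ShCTR, the highest of the 4 pairs. Its part in the Has2 result was not tested.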

How the results depend on the processing

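With the replicate block limma called 1802 rows, 2 hyaluronan genes and 11 pathway genes, against 0, 0 and 0 without the replicate block. Under the block the counts were 1787, 2 and 11 with a pseudocount of 0.5, 1831, 2 and 11 with 5, 1770, 3 and 11 with no filter, 1648, 2 and 10 with quantile normalization, 1845, 2 and 10 in edgeR, and 2053, 2 and 12 in DESeq2. Without the block DESeq2 called 248 rows, 0 hyaluronan genes and 1 pathway gene, and the other unblocked settings with all libraries called 0 of each. Leaving out single libraries without the block gave 0 to 105 rows, 0 to 0 hyaluronan genes and 0 to 1 pathway genes. Leaving out pairs 1, 2, 3 and 4 under the block gave 2831, 62, 523 and 0 rows, 0 to 3 hyaluronan genes and 0 to 14 pathway genes. The log2 difference of Hyal1 became −0.12 without ShHuR replicate 1 and −0.02 without ShCTR replicate 4, with a range of −0.12 to 0.61 over the single libraries left out without the block, and that of Cd44 became 0.011 under quantile normalization, with and without the replicate block. The cause of these reversals was not tested. Low read counts limit Has1, at 5 reads over 4 ShCTR libraries, and Has2 in pair 1.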
